A study of Mus musculus with 16 samples.

Results

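The Bcl2 family is the group of proteins that controls the permeability of the outer mitochondrial membrane, and 10 of its genes were followed here among the 24968 genes of the data: Bok, Bax, Bak1, Bad, Bid, Bcl2, Bcl2l1, Bcl2l2, Bcl2l11 and Mcl1. They were taken by gene symbol, and all 10 passed the filter on low values in every comparison. The libraries were bulk RNA-seq of microdissected CA1, CA3 and dentate gyrus (DG) of the dorsal hippocampus, from adult ArcCreERT2::eYFPflx mice on a C57BL/6 background. All mice carried the same alleles, in which the promoter of the activity-regulated gene Arc drives an inducible Cre and the reporter is eYFP. Trained mice learned active place avoidance (APA), in which a rotating arena holds an unmarked shock zone, untrained mice were placed in the same arena with the shock off, and tissue was taken after a retention test with no shock in both groups. There were 3 trained and 3 untrained mice, giving 3 trained and 3 untrained CA1 libraries, 3 trained and 2 untrained CA3 libraries, and 3 trained and 2 untrained DG libraries, each group's libraries from different animals, with the dissected pieces of one subregion of one animal pooled.

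The proteins fall into 3 classes. Bax, Bak1 and Bok can form pores in the outer mitochondrial membrane and release cytochrome c. The anti-apoptotic proteins Bcl2, Bcl-xL (Bcl2l1), Bcl-w (Bcl2l2) and Mcl1 hold Bax and Bak1 back. The BH3-only proteins Bad, Bid and Bim (Bcl2l11) relay stress signals by binding to the anti-apoptotic proteins, to Bax and Bak1, or to both. Bok differs from Bax and Bak1 in that it sits largely on the endoplasmic reticulum, is kept low by ubiquitin-dependent degradation and binds inositol trisphosphate receptors, and members of the family are also known to act in neurons outside cell death, in calcium handling, energy metabolism and synaptic function.

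The labels of the libraries and their contents did not match in full, and this touches every comparison below. The values are normalized estimated counts, with sums of 7606553 to 7984144 per library, and the reads behind them are not given, so no counting interval can be set. Between 3124 and 9758 genes were listed at 0 per library, and the training groups differed in opposite directions in CA1 and DG. Trained CA1 had 8323 to 9758 against 3124 to 5425 in untrained CA1, trained DG had 3479 to 5944 against 7567 to 8636 in untrained DG, and the CA3 groups overlapped (3171 to 8691 trained, 3578 to 5659 untrained). Markers of the dentate granule cell were present in every library: Prox1, which defines that cell, had values of 3052 to 3861 in untrained CA1 and of 2690 to 4002 in trained CA3, beside 4118 to 4183 in untrained DG and 3292 to 3367 in trained DG. The summed value of the 5 CA1 markers was 3222 to 5210 in untrained CA1 but 1599 to 1986 in trained CA1, in the range of the DG libraries (1343 to 2106). Xist, transcribed from the inactive X chromosome, had values of 7601 to 19590 in all 9 trained libraries and of 25.5 to 52.4 in 6 of the 7 untrained ones, although the study's methods place both sexes in each training group. The untrained CA3 library of replicate 1 had an Xist value of 10590, against 26.1 and 25.5 in the CA1 and DG libraries labelled with the same animal. The names CA1, CA3 and DG are therefore those of the labels, and training, sex-linked expression and the makeup of the dissected tissue cannot be told apart in full. In bulk tissue, fewer cells of a type and less RNA per cell cannot be told apart either.

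The 10 genes lie on 8 chromosomes. In GRCm38 (GENCODE vM21), Bok covers chromosome 1 from 93685660 to 93695764 on the plus strand and Mcl1 covers chromosome 3 from 95658788 to 95663176 on the plus strand. The promoters of both are shown because these genes moved in opposite directions in trained libraries. The RefSeq promoter windows (GRCm38.p6, 250 bases before to 50 after the start, plus strand) are chr1:93685325-93685624 for Bok and chr3:95658471-95658770 for Mcl1, written in lower case with matches to the GC box and the CRE half-site in capitals:
Bok: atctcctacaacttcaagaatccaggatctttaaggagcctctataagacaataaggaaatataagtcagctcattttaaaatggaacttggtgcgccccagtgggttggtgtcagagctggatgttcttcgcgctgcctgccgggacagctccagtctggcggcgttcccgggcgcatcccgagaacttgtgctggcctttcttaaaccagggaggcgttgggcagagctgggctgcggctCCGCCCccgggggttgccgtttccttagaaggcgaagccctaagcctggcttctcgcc
Mcl1: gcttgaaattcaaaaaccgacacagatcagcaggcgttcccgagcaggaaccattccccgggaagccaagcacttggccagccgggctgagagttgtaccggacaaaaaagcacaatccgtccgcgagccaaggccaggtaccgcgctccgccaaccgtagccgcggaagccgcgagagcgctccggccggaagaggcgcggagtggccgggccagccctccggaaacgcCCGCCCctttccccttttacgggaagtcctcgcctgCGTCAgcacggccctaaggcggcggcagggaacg
Both windows held 1 GC box (GGGCGG, read here on the other strand as CCGCCC), which 35.7% of 32851 mouse promoter windows of the same length held on either strand. The Mcl1 window also held 1 CRE half-site (TGACG on the other strand), found in 20.8% of all windows, and the Bok window held none. Neither window matched the EGR motif (GCGTGGGCG), found in 0.612% of all windows, or the E-box (CACGTG), found in 7.15%. Neither held a CCAAT box either (the letters CCAAT, in 37.4% of all windows). The TATA box letters TATAAA, in 13.6% of all windows, were absent from both as well. All 10 members had an entry in the table, and the motifs did not overlap each other in either window. A match of letters is a description and not a binding site.

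Before any comparison of groups, the members were ordered by level per kb of merged exon length, since only that scale compares genes. Bok was highest in the mean over the 16 libraries, at 246 ± 81.5 per kb (SD, n = 16), followed by Bcl2l2 at 200 ± 15.9, Bcl2l1 at 189 ± 19.7, Mcl1 at 155 ± 15.1 and Bax at 143 ± 20.0. These neighbours changed places between libraries: Bok was above Bcl2l2 in 12 of 16 libraries, the other 4 being the 3 untrained CA1 libraries and untrained CA3 replicate 1, and Mcl1 was above Bax in 11 of 16. The place of Bok was not the same in each group. In untrained CA1 its mean of 122 ± 21.0 per kb (n = 3) lay below those of Bcl2l2 (205), Mcl1 (177), Bax (167) and Bcl2l1 (162). A gap followed Bax, since Bax was above Bad in 16 of 16 libraries. The rest lay lower, with Bad at 38.8 ± 5.06 per kb, Bak1 at 29.2 ± 6.15, Bid at 21.2 ± 5.74, Bcl2 at 12.7 ± 2.10 and Bcl2l11 at 8.20 ± 2.03. Bok was also the most variable of the 10, with a coefficient of variation of 33.2% and a 3.69-fold span from the lowest to the highest library, while Bcl2l2 spanned 1.34-fold and Mcl1 1.37-fold. All later values are the deposited values themselves, not divided by length, and are compared only within a gene.

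**Figure D1:**
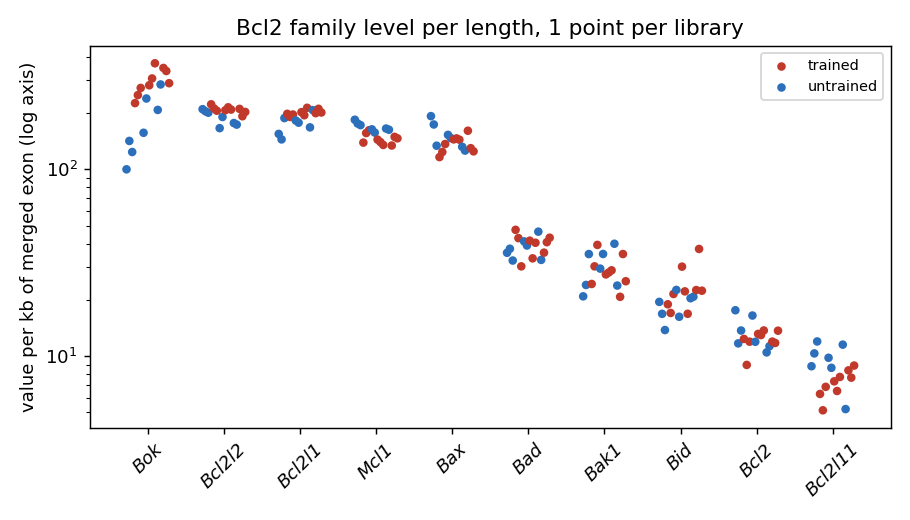
Level of each Bcl2 family gene per kb of merged exon (log axis), with 1 point per library and trained libraries in red, untrained in blue. Bok reached 369 per kb in its highest library and crossed the narrow ranges of Bcl2l2 and Bcl2l1, while Bad, Bak1, Bid, Bcl2 and Bcl2l11 stayed below 50 per kb.

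Bok was lowest in untrained CA1 and highest in trained CA3 and DG. In untrained CA1 its values were 148, 210 and 183, and in trained CA1 they were 334, 369 and 403. The lowest trained library was thus well above the highest untrained one. In CA3 the untrained libraries had 232 and 354 and the trained libraries 416, 453 and 546, again with no overlap. In DG the untrained libraries had 307 and 421 and the trained libraries 516, 496 and 427, and the groups were separated only narrowly. The untrained CA3 value of 232 belongs to the library whose Xist value differed from the other libraries of its animal. Ordered by mean, the groups ran from untrained CA1 (180 ± 31.0, SD, n = 3) through untrained CA3 (293 ± 86.1, n = 2), untrained DG (364 ± 80.1, n = 2), trained CA1 (369 ± 34.4, n = 3) and trained CA3 (472 ± 66.9, n = 3) to trained DG (480 ± 46.5, n = 3). Neighbours overlapped in 3 of the 5 steps, and untrained CA1 stood below untrained CA3, and trained CA1 below trained CA3, without overlap.

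**Figure D2:**
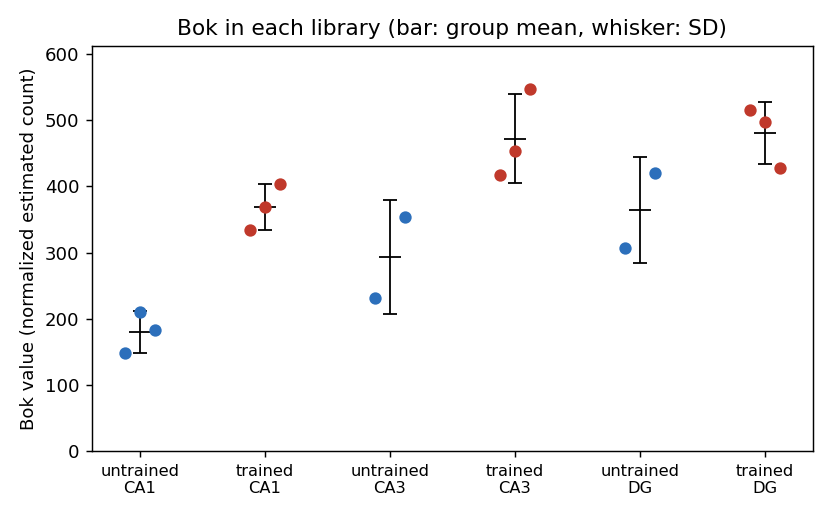
Bok value (normalized estimated count, axis from 0) in each library by group, with untrained libraries in blue and trained in red; the bar is the group mean and the whisker the SD. All 3 trained CA1 libraries (334 to 403) sit above all 3 untrained CA1 libraries (148 to 210), and the same order holds with a smaller gap in CA3 and DG.

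To ask which members differed with APA training, trained and untrained libraries of one subregion were compared on log2(value + 2) with limma, with p-values adjusted over all genes tested (Benjamini-Hochberg), and a gene with an adjusted p under 0.05 is called a DEG. In CA1, Bok was 2.05-fold higher in trained libraries, a log2 fold change of 1.04 ± 0.123 (SE, 95% interval 0.78 to 1.29). The study picked Bok for RT-qPCR from this CA1 comparison, so its CA1 difference is given as a description. Its CA3 difference was 0.71 ± 0.195 on the log2 scale (1.63-fold, adjusted p = 0.160) and its DG difference 0.41 ± 0.128 (1.33-fold, adjusted p = 0.0927), neither past the threshold. Both of those depended on which untrained library was kept. Without untrained CA3 replicate 1, whose Xist value differed from its animal, the CA3 difference was 0.40 (adjusted p = 0.50), and without untrained CA3 replicate 2 it was 1.01 (adjusted p = 0.0378, range over alternatives 0.00223 to 0.865). The DG difference was 0.18 without untrained DG replicate 1 (adjusted p = 0.387) and 0.63 without untrained DG replicate 3 (adjusted p = 0.000768, range 2.16e-05 to 0.387). With the 16 libraries together and subregion as a term, Bok was 0.74 ± 0.121 higher in trained libraries (1.67-fold, adjusted p = 0.00157), a fit that contains the CA1 libraries. With the sex-linked score as a further covariate the Bok difference was 0.99 ± 0.293 with an adjusted p of 0.195, and no gene of 14670 passed in that fit, so training and sex-linked expression were not separable at this size.

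Within each labelled subregion the summed value of CA3 neuron markers was higher in trained libraries, as Bok was. The 5 markers did not move alike. Between labels the sums did not follow Bok: untrained CA3 replicate 1 had the lowest sum of all libraries (1860). Its Bok value of 232 was above those of untrained CA1. The summed value of the 5 CA3 markers was 2385 to 2964 in untrained CA1 and 3052 to 3283 in trained CA1, 1860 to 2698 in untrained CA3 and 2984 to 3967 in trained CA3, and 2682 to 2912 in untrained DG and 3280 to 3742 in trained DG, so the trained libraries were higher in each subregion. All 5 were above 0 in each group. Grik4 and Nectin3 were higher without overlap in trained CA1 and CA3 and overlapped in DG, while Dkk3 overlapped in CA1 (1776 to 2370 untrained, 2127 to 2332 trained) and was higher in CA3 and DG. Iyd was low, at 0.835 to 18.4 over all libraries, and was higher in DG alone. Coch went the other way, at 32.8 to 43.0 in untrained and 11.6 to 13.9 in trained CA1, and at 30.7 to 42.8 in untrained and 8.33 to 14.1 in trained CA3. Of the 12 marker lists, trained and untrained sums did not overlap for 5 in CA1, 5 in CA3 and 7 in DG. Of all single genes tested, 24.0%, 33.9% and 35.6% did not overlap there, and nothing is read from these counts. In CA1 the lists were those of CA1, CA2, CA3, pan-neuronal and astrocyte markers. Pan-neuronal sums were higher in trained CA1 (50820 to 51940 against 43460 to 45610) and CA3 (51760 to 57740 against 46400 to 50370) and overlapped in DG. CA2 marker sums were lower in all 3, at 1221 to 1352 against 1367 to 1425 in CA1. In trained DG the DG marker sums were lower (6232 to 6670 against 7547 to 8075), as were oligodendrocyte and endothelial and mural ones, and interneuron ones were higher. Oligodendrocyte precursor sums were higher in trained CA3 (1143 to 1195 against 893.7 to 977.4) and DG. Choroid plexus and leptomeninges sums were lower in trained CA3 and astrocyte sums higher in trained CA1. A sum is led by the most abundant genes of its list, and single markers of these other lists, which may differ, are not given here. Microglia sums overlapped in each subregion. With CA1 and CA3 marker scores as covariates in the combined fit, a choice made after seeing these values, the Bok difference was 0.61 ± 0.130 (adjusted p = 0.00997, against a range of 0.000336 to 0.195 over all alternatives). The tissue makeup and training cannot be told apart from this value, and the part of the other cell types was not tested.

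**Figure D3:**
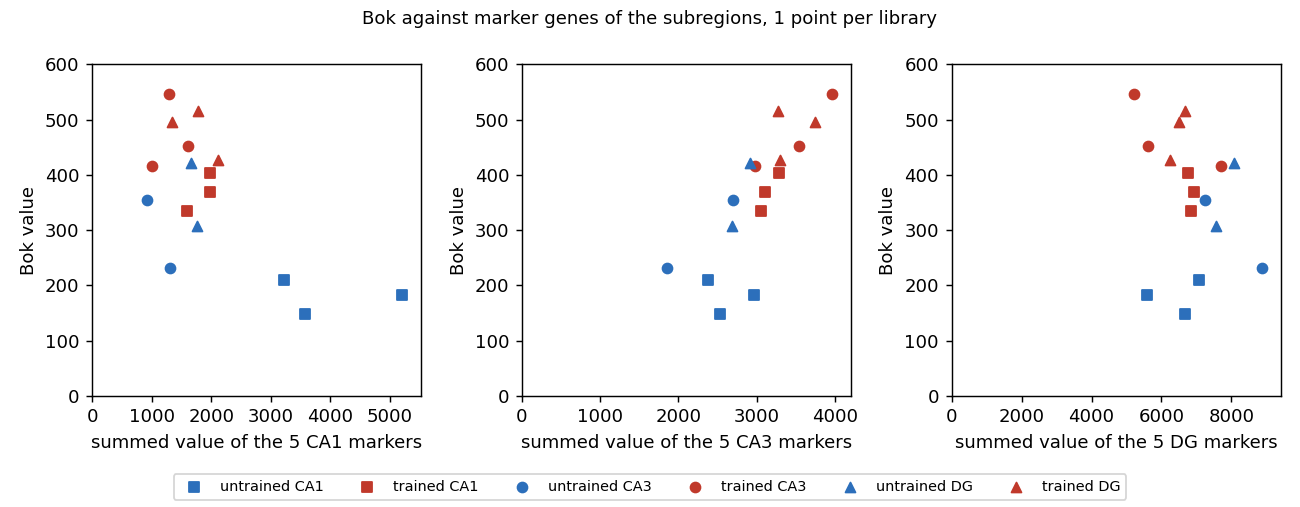
Bok value (vertical axis) against the summed value of the 5 CA1, 5 CA3 and 5 DG markers (horizontal axes), 1 point per library, with blue for untrained, red for trained, and squares, circles and triangles for CA1, CA3 and DG labels. Untrained CA1 libraries combine the highest CA1 marker sums (3222 to 5210) with the lowest Bok values (148 to 210), and DG marker sums of 5208 or more are present under every label.

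The other effectors did not follow Bok. Bax, the pore-forming protein that moves from the cytosol to mitochondria, had values of 167, 151 and 116 in untrained CA1 and of 101, 107 and 118 in trained CA1. The 2 highest libraries were untrained, yet the groups overlapped, and the log2 fold change was -0.39 ± 0.153 (adjusted p = 0.164). Without untrained CA1 replicate 3, the untrained library with the lowest Bax, it was -0.54 with an adjusted p of 0.0472. Bax was 132 and 127 in untrained CA3 and 125, 127 and 125 in trained CA3, and 114 and 109 in untrained DG and 139, 112 and 108 in trained DG, with adjusted p-values of 0.884 and 0.810. Bak1, its counterpart that resides in the mitochondrial membrane, had values from 49.6 to 95.3 over the 16 libraries, and its trained and untrained values overlapped in CA1 and DG. In CA3 the trained values of 65, 67 and 69 lay just below the untrained values of 70 and 84, with a log2 fold change of -0.19 ± 0.158 (adjusted p = 0.589).

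Among the BH3-only genes, Bcl2l11 was lower in trained CA1. Bcl2l11 encodes Bim, which can activate Bax and Bak directly and binds all the anti-apoptotic proteins. Its values were 61, 71 and 83 in untrained CA1 and 43, 35 and 47 in trained CA1, without overlap. The log2 fold change was -0.74 ± 0.208 (adjusted p = 0.0428), just past the threshold. The call was lost without any one of 5 of the 6 libraries (all but trained CA1 replicate 3), with adjusted p-values of 0.0698 to 0.159. Bcl2l11 was 68 and 60 in untrained CA3 and 51, 45 and 53 in trained CA3 (-0.35 ± 0.177, adjusted p = 0.364), and 79 and 36 in untrained DG and 58, 53 and 61 in trained DG (adjusted p = 0.897). The trained DG values thus lay between the 2 untrained ones. Bad, which binds Bcl-xL and Bcl2 when it is dephosphorylated, had values from 72.3 to 113 and overlapped between training groups in each subregion. Bid, which caspase-8 cleaves to link death receptors with mitochondria, ran from 30.2 to 82.0, its highest value in trained DG replicate 2. In DG the trained Bid values of 49, 82 and 49 were above the untrained values of 45 and 46, with a log2 fold change of 0.36 ± 0.254 (adjusted p = 0.478).

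Of the 4 anti-apoptotic genes, none passed in a single subregion. In the fit of the 3 subregions together Mcl1 was lower and Bcl2l1 and Bcl2l2 were higher in trained libraries, and Bcl2 did not pass. Mcl1 encodes a short-lived protein that neurons need for survival. Its values were 629, 601 and 589 in untrained CA1 and 475, 534 and 553 in trained CA1. In CA3 they were 559 and 537 untrained and 493, 478 and 461 trained, and in DG they were 565 and 557 untrained and 458, 510 and 500 trained. Every trained library was below every untrained library of its subregion. The log2 fold changes were close to each other, at -0.22 ± 0.079 in CA1, -0.20 ± 0.081 in CA3 and -0.20 ± 0.089 in DG, and none passed alone (adjusted p = 0.120, 0.264 and 0.235). In the combined fit Mcl1 fell by 0.21 on the log2 scale (SE 0.0453, adjusted p = 0.00489), and without untrained animal 1 the adjusted p was 0.0758 (range over alternatives 0.00334 to 0.417).

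Bcl2l1, whose product Bcl-xL is the main anti-apoptotic family protein of mature neurons, had values of 601, 562 and 730 in untrained CA1 and of 769, 741 and 764 in trained CA1. In CA3 it was 709 and 690 untrained and 785, 756 and 829 trained. The trained libraries were above the untrained ones in both subregions, with log2 fold changes of 0.27 ± 0.0856 in CA1 (adjusted p = 0.0729) and 0.17 ± 0.0781 in CA3 (adjusted p = 0.311). In DG the untrained values of 651 and 806 enclosed 2 of the 3 trained values of 776, 819 and 782. The combined difference was 0.20 ± 0.054 (adjusted p = 0.0202). It did not pass without any one of 5 of the 6 animals (untrained 3 being the exception), with adjusted p-values of 0.0622 to 0.205. Without the untrained replicate 3 library, Bcl2l1 passed in CA1 (0.38, adjusted p = 0.00301) and in DG (0.28, adjusted p = 0.0415).

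Bcl2l2, which encodes Bcl-w, a protein known to protect axons, did not pass in any single subregion, and no interaction of it passed either. Its values were 677 and 777 in untrained CA3 and 845, 875 and 851 in trained CA3, and 721 and 707 in untrained DG and 859, 784 and 827 in trained DG. Neither pair of groups overlapped, with log2 fold changes of 0.24 ± 0.0832 (adjusted p = 0.201) and 0.20 ± 0.0788 (adjusted p = 0.165). Without untrained CA3 replicate 1, whose Xist value differed from its animal, the CA3 value was 0.14. In CA1 the untrained values of 855, 834 and 819 overlapped the trained values of 908, 863 and 840 (0.06 ± 0.0651, adjusted p = 0.694). The combined difference was 0.16 ± 0.0439 (adjusted p = 0.0220), and it did not pass without untrained animal 1 or trained animal 1 or 2 (adjusted p of 0.0696 to 0.152). Bcl2, the founding member of the family, was 161, 107 and 126 in untrained and 113, 82 and 109 in trained CA1, which overlapped (-0.36 ± 0.171, adjusted p = 0.266). It was 96 and 104 in untrained DG and 109, 108 and 125 in trained DG, which did not overlap (0.19 ± 0.164, adjusted p = 0.574).

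**Figure D4:**
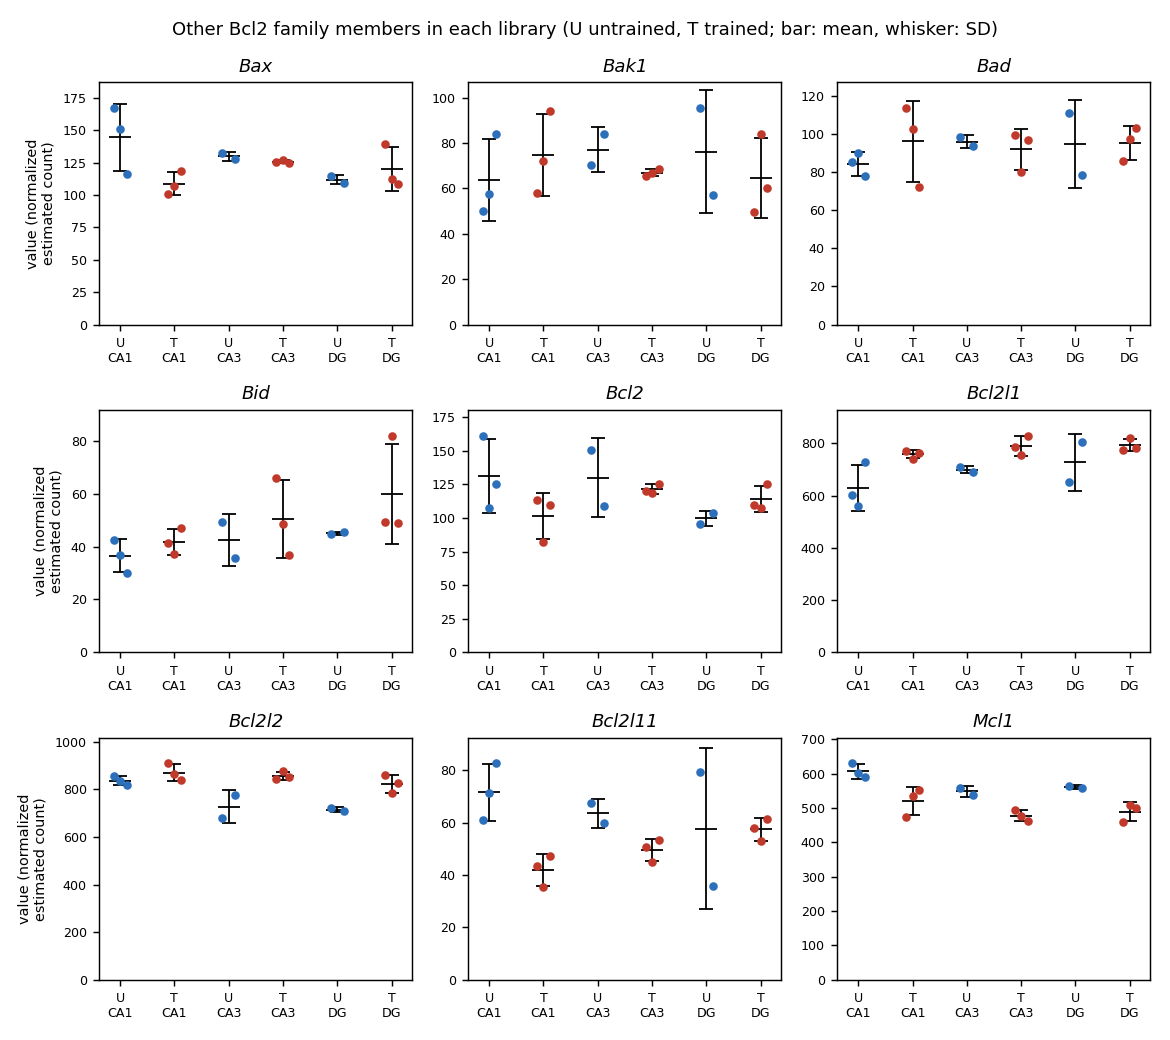
Values (normalized estimated counts, axes from 0) of the 9 members other than Bok in each library, U for untrained in blue and T for trained in red, with the group mean as a bar and the SD as a whisker. Mcl1 is lower in trained libraries under each label (458 to 553 against 537 to 629 over all labels), and Bcl2l11 has its lowest group mean in trained CA1 (values of 35 to 47).

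Over the 10 members, 2 were DEGs in CA1, where 5.23% of 13585 genes tested were called. They were Bok, higher as were 3.53% of all genes, and Bcl2l11, lower as were 1.70%. Since Bok was picked from this comparison, nothing is read from its call or from the count that includes it. Trained and untrained libraries did not overlap for 4 of the 10 members in CA1, against 24.0% of all genes. In CA3 no member was a DEG by limma, against 0.852% of all genes, while 4 members had an unadjusted p under 0.05 (15.8% of all genes did) and 7 did not overlap (33.9% of all genes). In DG no member was a DEG by limma, against 3.40% of all genes, while 3 had an unadjusted p under 0.05 (19.5% of all genes) and 5 did not overlap (35.6% of all genes). In the combined fit 4 of 10 were DEGs, against 10.3% of 14670 genes. Bok, Bcl2l1 and Bcl2l2 were higher (6.28% of all genes were called higher) and Mcl1 was lower (4.06% were called lower). The median log2 fold change of the 10 was 0.11 in CA1, -0.06 in CA3, 0.11 in DG and 0.01 combined, beside medians of all genes between -0.01 and 0.01. The combined fit holds the libraries of the other 3, so it is not a further replicate of them. Its count of 4 moved with the setting: it was 1 (Bok) without untrained animal 1, 2 (Bok and Mcl1) without trained animal 1 or trained animal 2, 1 (Bok) under upper-quartile rescaling and 0 once sex-linked expression was a term of the fit. Without the untrained CA3 library of replicate 1, an alternative chosen after seeing the data, 3 members were DEGs in the combined fit, and Bcl2l2 was lost (adjusted p = 0.0841, against a range of 0.00881 to 0.938 over all alternatives).

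**Figure D5:**
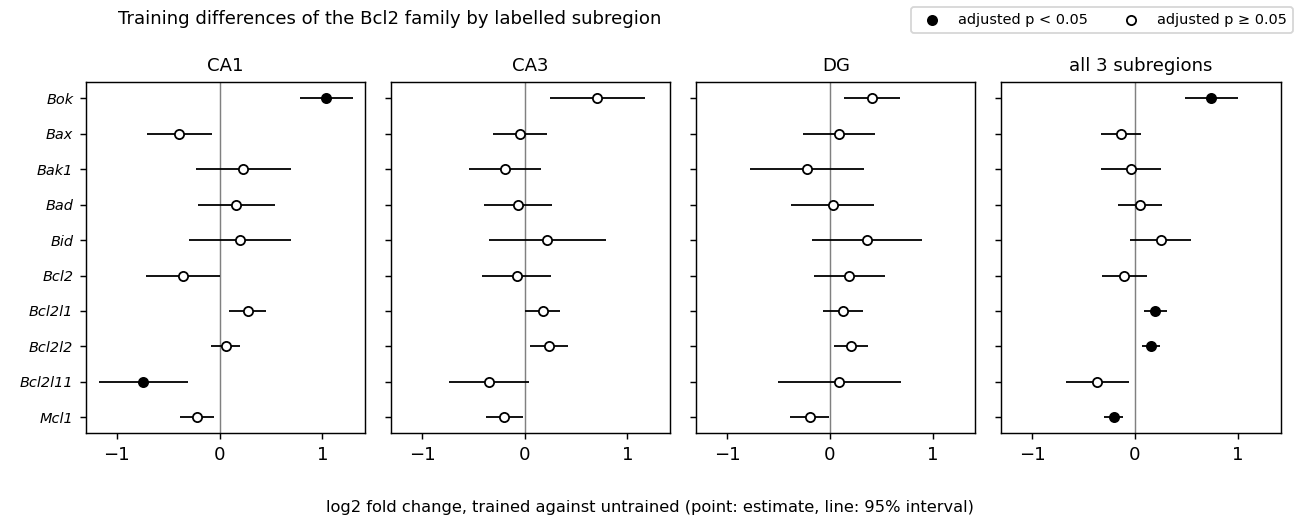
Log2 fold change of trained against untrained libraries (point) with its 95% interval (line) for each member in CA1, CA3, DG and the 3 subregions combined; filled points have an adjusted p under 0.05. Bok is to the right in each panel (1.04, 0.71, 0.41 and 0.74), and Mcl1 is to the left at a similar distance in each (-0.22, -0.20, -0.20 and -0.21).

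To ask whether the training difference itself depended on the subregion, interactions were tested in one fit of the 6 groups with the animal as a random block. No member passed between CA1 and CA3, CA1 and DG or CA3 and DG, where limma called 0.0273%, 2.77% and 0.164% of all genes, and at an unadjusted p under 0.05 the members numbered 0, 4 and 0 (6.78%, 18.0% and 11.7% of all genes). The widest differences were between CA1 and DG. The Bok training difference was 0.63 larger on the log2 scale in CA1 than in DG (95% interval 0.09 to 1.17, adjusted p = 0.206). Bok was picked from the CA1 comparison, whose libraries this contrast contains, so the difference and its alternatives are given as a description. The value of 0.63 moved with the setting. With the animal as a fixed effect it was 0.75 and passed (adjusted p = 0.0219), with the number of genes at 0 as a covariate it was 1.29 (adjusted p = 0.296), and under upper-quartile rescaling, which shifted the median of all genes by -0.89, it turned to -0.27 (adjusted p = 0.346, range over alternatives 0.0219 to 0.498). Leaving out 1 animal gave 0.42 to 0.75. The Bcl2l11 training difference was lower in CA1 than in DG, by -0.84 (95% interval -1.52 to -0.16, adjusted p = 0.174). It rested on the untrained DG values of 79 and 36, being -1.49 without untrained animal 1 (adjusted p = 0.0386) and -0.18 without untrained animal 3 (adjusted p = 0.813, range over alternatives 0.000417 to 0.868). The Bcl2 training difference was lower in CA1 by -0.55 (-1.04 to -0.06, adjusted p = 0.218) and that of Bax by -0.48 (-0.91 to -0.05, adjusted p = 0.218). The Mcl1 training difference was nearly equal, with a CA1 minus DG value of -0.02 and an interval from -0.26 to 0.21.

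Between subregions, over both training groups, Bok was lower in CA1 than in DG by -0.69 ± 0.126 on the log2 scale (0.619-fold, adjusted p = 0.00864), and it was the one member past the threshold, where 4.10% of all genes passed. Without the untrained animal 3 or the trained animal 2 the value was -0.59 and -0.68, with adjusted p-values of 0.0722 and 0.0889 (range over all alternatives 1.88e-05 to 0.0889). Against CA3, Bok in CA1 was lower by -0.51 ± 0.126 (adjusted p = 0.0770). No member passed by limma, against 1.04% of all genes, with 3 at an unadjusted p under 0.05 (10.3% of all genes). With the animal as a fixed effect the Bok difference was -0.53 and passed (adjusted p = 0.000766). It also passed without robust estimation (adjusted p = 0.0361). Without the untrained CA3 library of replicate 1 this Bok difference was -0.66, with an adjusted p of 0.00818 (range 0.000766 to 0.321). Between CA3 and DG no member passed or had an unadjusted p under 0.05 (6.95% of all genes had), and 1 gene of 14670 (0.00682%) did pass. Since Prox1 was high under each label, these values compare labels and not pure subregions.

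Outside the 10, 54 genes of the same pathway were followed in 3 lists. The first was 15 other Bcl2 family genes, of which 7 were tested in CA1, CA3 and DG and 8 in the combined fit. In training comparisons 1 of them passed, in the combined fit, which is near the 10.3% of all genes called there. It was Hrk, a BH3-only gene of neurons, which fell by 0.30 on the log2 scale (SE 0.0765, adjusted p = 0.0165). Its values ran from 510 to 762 in untrained and from 449 to 649 in trained libraries, which overlapped. The second list was the apoptosome and caspases, with 17 genes including Apaf1 and Casp9. None of those tested (16 in CA1 and CA3, 17 in DG and combined) passed in a training comparison by limma, and in CA1 1 higher and 2 lower of 16 had an unadjusted p under 0.05 (18.9% of all genes had). Xiap, which inhibits caspases, was higher in CA1 than in DG by 0.21 ± 0.0579 (adjusted p = 0.0437). The last list held 22 partners and regulators of the family. The median training log2 fold change of the tested genes of the 3 lists was -0.10, -0.02 and 0.02 in CA1 and -0.03, 0.18 and 0.02 in DG, beside medians of all genes within 0.01 of 0.

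Among the partners and regulators, Itpr1, the main inositol trisphosphate receptor of neurons and of the receptor family that Bok protein binds, was lower in trained CA1. Its values were 6405, 5694 and 6797 in untrained CA1 and 4652, 5333 and 5274 in trained CA1, without overlap. The log2 fold change was -0.31 ± 0.0683 (adjusted p = 0.0224), where Bok was higher. In CA3 and DG the Itpr1 differences were 0.01 ± 0.0912 (adjusted p = 0.976) and 0.13 ± 0.0585 (adjusted p = 0.227). The Itpr1 training effect was lower in CA1 than in DG by -0.44 (95% interval -0.66 to -0.21, adjusted p = 0.0320). Itpr1 was also higher in CA1 than in CA3, by 0.41 ± 0.0543 (adjusted p = 0.000448), and than in DG, by 0.35 ± 0.0543 (adjusted p = 0.00169). CA1 marker genes moved with it, with sums of 3222 to 5210 in untrained and 1599 to 1986 in trained CA1, and their part in the Itpr1 result was not tested. Itpr3, a receptor of the same family at values of 11.2 to 41.1, was higher in CA1 than in DG by 0.87 ± 0.212 (adjusted p = 0.0214). No other partner or regulator passed in these comparisons, Trp53 and Mdm2 included. Of the 22 genes of this list 1 was thus called in trained CA1, near the 5.23% of all genes called there. The list had 1 call in CA1 against CA3 (1.04% of all genes), 2 in CA1 against DG (4.10%) and 1 in the CA1 and DG interaction (2.77%), and nothing is read from these counts about the list.

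The genes with the pattern most like that of Bok were found by Pearson correlation of log2(value + 2) over the 16 libraries, among 10763 other genes with a mean value of at least 50. Among the closest were Klhl2 (r = 0.961), Nectin3 (r = 0.960), Homer3 (r = 0.956) and Gpc1 (r = 0.956). Nectin3, a cell adhesion gene, is among the 5 CA3 markers, and its group means ran from 256 in untrained CA1 and 460 in trained CA1 to 544 in trained CA3. Homer3, a postsynaptic scaffold gene, ran from 231 in untrained CA1 to 495 in trained CA3. Among the members themselves, Bcl2l1 (r = 0.789) and Mcl1 (r = -0.839) had the strongest correlations with Bok, and the rest lay between -0.534 and 0.445. The 16 points share animals, subregion labels and the training difference, and after the group means were removed the correlation of Klhl2 with Bok was 0.854 and that of Homer3 was 0.717.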

How the data were processed

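Bulk RNA-seq libraries of CA1, CA3 and DG from trained and untrained mice were grouped by their titles. The authors mapped reads with STAR and quantified them with Salmon ahead of deposit, and the submitters' processing notes name GRCm38 as the build. The deposited signal is a normalized estimated count, not a whole number. The processing notes list DESeq2 among the tools, but how these values were normalized is not given in the sources used here. Rescaling by median of ratios changed little, with 713 genes called by limma in CA1 against 710 as reported. The strand setting of the counting is likewise not given. Exons of 6 members share bases with another annotated gene (Bax, Bak1, Bad, Bid, Bcl2 and Bcl2l2), so their values are less certain than those of Bok, Bcl2l1, Bcl2l11 and Mcl1.

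The values being normalized, a linear model was fitted to log2(value + 2) with limma 3.58.1 (R 4.3.3; trended prior, robust empirical Bayes), p-values were adjusted by Benjamini-Hochberg over all genes tested, and no count model was used. Fold changes are on that scale and understate the change of low genes. A gene entered a fit if 3 libraries (CA1) or 2 libraries (otherwise) reached a value of 10, and 4 rows with a repeated symbol were left out. Training within 1 subregion was fitted on that subregion's libraries, the combined comparison had subregion as a term, and subregion contrasts and interactions used 6 groups with the animal as a random block (consensus correlation 0.00675). Libraries of one animal deviated from their group means with correlations of -0.28 to 0.213 across 10764 genes. Within 1 subregion the p-values measure the spread between animals, as far as each library holds only the animal of its label. The combined comparison treats the 16 libraries of 6 animals as independent, so its p-values do not; with the animal as a random block it called the same 4 members. All 10 members, with the tested pathway genes past the threshold and up to 4 per list by p in a subregion contrast, are named, as are 4 of the 5 genes most correlated with Bok; the other one is not reported here. The members and lists were chosen with earlier results of these data known. The method was tested on simulated data. Alternatives were another scaling, filter and pseudocount, no robust estimation, blocks, covariates and leaving out libraries or animals.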

Additional observations from a re-analysis of the deposited data

How the results depend on the processing

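The 7 member differences past the threshold, of which the CA1 difference of Bok was used by the study to choose that gene, kept their direction under each alternative run. Over all 100 member differences and their alternatives 1580 of 1640 values kept their side of the threshold. Of the others, 27 were no longer past it, 30 were newly past and 3 were past in the opposite direction. The 27 losses all fell on the 7 differences past the threshold as reported. In all, 101 values changed sign while passing in neither setting. Rescaling by the upper quartile of nonzero values shifted the median log2 fold change of all genes by as much as -0.473 in CA1, 0.404 in DG, -0.137 combined and -0.890 for the CA1 and DG interaction, and since it follows the number of genes at 0 its values are read against those shifts. It called 6 members in CA1 (reported count 2), 5 in DG (0), 1 combined (4), 1 for CA1 against CA3 (0), 8 for the CA1 and DG interaction (0) and 1 for the CA3 and DG interaction (0). It turned the CA1 difference of Bcl2l2 to -0.42 and the CA1 and DG interactions of Bad and Bcl2l1 to -0.74 and -0.74. The upper quartile over genes above 0 in every library, added after seeing the data, kept each count within 1.5 times. The sex-linked score as a covariate left 0 members combined (4 reported), by limma over 0 called genes of 14670 (1516 reported).

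Without robust estimation, and with all 16 libraries in 1 fit, CA1 had 1 member, and CA1 against CA3 had 1 without robust estimation. Trained and untrained animals share only a replicate number (correlations of deviations -0.204 to 0.099), and with that number as a block CA1 had 1 member and CA3 had 2 (Bok and Bcl2l2). With the animal as a fixed effect, a replicate block, CA1 against CA3 had 1 member and the CA1 and DG interaction 1, in both cases Bok; the random block and its absence changed no other count by over 1.5 times. Leaving out libraries gave 1 to 3 members in CA1, 0 to 1 in CA3 (1, Bok, without untrained replicate 2) and 0 to 2 in DG (2, Bok and Bcl2l1, without untrained replicate 3). Leaving out animals gave 1 to 5 combined (1, Bok, without untrained 1; 2 without trained 1 or trained 2), 0 to 1 for CA1 against CA3, 0 to 1 for CA1 against DG (0 without untrained 3 or trained 2) and 0 to 1 for the CA1 and DG interaction (1, Bcl2l11, without untrained 1). Where a lone untrained library remained in CA3 or DG, its spread was taken from the other group. The causes of these changes were not tested.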
